A study of Mus musculus with 12 samples.

Results

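The HRD1 complex and the derlins form the ubiquitin ligase and membrane exit site through which misfolded proteins leave the endoplasmic reticulum (ER). The 9 genes followed here belong to this machinery: Syvn1, Sel1l, Fam8a1, Herpud1, Derl1, Derl2, Derl3, Os9 and Erlec1. They were read by every probeset (a set of short array probes read as 1 value) that the array's annotation gives to 1 of these genes alone, in all 23 of 45037 probesets and 9 of 18193 genes. The values are deposited log2 values of RNA from whole liver homogenate, with 1 animal on each of 12 arrays. The 4 groups of 3 animals were Atf6a-/- mice given tunicamycin (TM), wild-type mice given TM, Atf6a-/- mice given vehicle and wild-type mice given vehicle. TM, an inhibitor of N-linked glycosylation that causes ER stress, was injected into the peritoneum at 2 mg/kg in 150 mM dextrose, vehicle was the dextrose alone, and livers were taken 8 h later. Animals of all groups varied in age and gender and were fasted before they were killed. Neither the strain nor the deleted part of Atf6 is given in the sources used here.

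ER-associated degradation (ERAD) removes proteins that fail to fold in the ER. Lectins in the ER lumen recognise trimmed sugar chains on such proteins and pass them to SEL1L, which holds the membrane ligase HRD1. Derlins and HRD1 help the substrate across the membrane, and it is ubiquitinated, pulled out by the ATPase p97 and degraded by the proteasome. The liver secretes large amounts of protein and folds many newly made glycoproteins in its ER. ATF6alpha is a membrane-bound sensor of ER stress whose released fragment binds, together with NF-Y, to ER stress response elements (ERSE) in promoters. The IRE1 and PERK branches act through XBP1 and ATF4.

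After TM, 5 of the 9 genes were higher in Atf6a-/- livers, and 7 were higher in wild-type livers. A gene was called higher or lower when its brightest probeset had an adjusted p under 0.05 by limma and differed over 1.5-fold. The same calls were made for 13.1% of all 18193 genes in Atf6a-/- livers and for 8.92% in wild-type livers. None of the 9 was called lower in either genotype, against 8.21% of all genes in Atf6a-/- and 6.90% in wild-type livers. Under TM, 3 genes, Derl3, Sel1l and Syvn1, were lower in Atf6a-/- than in wild-type livers, where 1.53% of all genes were, and 0 were higher, against 2.89% of all genes. The same 3 had a smaller response to TM in Atf6a-/- livers by the test of the interaction, a call that 0.748% of all genes had in this direction and 1.06% in the other. With vehicle, limma called 0 of the 9 genes and 0 of 18193 between the genotypes. At an unadjusted p under 0.05 there were 1 of the 9 and 705 of all genes.

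Medians over the 9 genes on the log2 scale were 1.31 for TM minus vehicle in Atf6a-/- livers, with -0.10 over all genes, and 1.41 in wild-type livers, with -0.06 over all genes. The median of Atf6a-/- minus wild-type was -0.38 under TM, with -0.02 over all genes, and 0.00 with vehicle, with 0.00 over all genes. RNA of whole liver was measured, so fewer cells of a type and less RNA per cell cannot be told apart. Both TM contrasts and the interaction share arrays, so their counts are not independent of each other.

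Atf6 itself, the deleted gene, was read by 3 probesets. Its brightest averaged 10.15 ± 0.37 in Atf6a-/- TM and 10.97 ± 0.21 in wild-type TM livers, and 7.33 ± 0.41 in Atf6a-/- vehicle and 9.04 ± 0.38 in wild-type vehicle livers (SD, n = 3 each). With TM it rose 7.08-fold in Atf6a-/- livers (log2 2.82, adjusted p = 4.71e-06) and 3.83-fold in wild-type livers (log2 1.94, adjusted p = 1.26e-04). The difference in this response did not pass (interaction 0.89, adjusted p = 0.33). Under TM the genotypes overlapped in 1 of the 3 probesets, and limma called none of the 3. With vehicle all 3 probesets were lower in every Atf6a-/- array than in every wild-type array, at log2 -1.71 for the brightest and -0.77 and -1.09 for the others. None was called between the genotypes by limma (adjusted p = 0.184 for the probesets at -1.71 and -1.09). A missing call with vehicle therefore does not show equal levels. Which part of the transcript the probesets read was not analysed here. Hepatocyte markers (6 genes) lay at percentile 99.0 or above of each array group. Those of stellate cells ran from percentile 49.6 to 97.9, of Kupffer cells from 66 to 95 and of endothelial cells from 71.2 to 90.5. Markers of B and plasma cells, T cells, cholangiocytes and pancreatic acinar cells lay at most at percentile 76.1. No gene of the 8 marker lists was called between the genotypes under TM, where 2.89% of all genes were higher and 1.53% lower. With TM, 2 of 4 Kupffer cell and 1 of 4 cholangiocyte markers were called in either direction in Atf6a-/- livers. In each genotype 1 of 6 hepatocyte, 1 of 4 endothelial and 1 of 4 stellate cell markers were called. Over all genes 13.1% were higher and 8.21% lower in Atf6a-/- livers, and 8.92% higher and 6.90% lower in wild-type livers. The part of these markers in the responses to TM was not tested. A total of 4 arrays, 1 per group, carried the Y-linked gene Eif2s3y at 8.21 or more with Xist at 6.33 or less, and the other arrays had Eif2s3y at 3.44 or less.

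RefSeq promoter windows, from 250 bases before to 50 bases after the annotated start in the build GRCm38.p6, were held for 7 of the 9 genes, and 4 are shown because the largest responses and the largest genotype differences lay among their genes. Derl1 and Erlec1 had no window in the table. Capitals mark matches to an ERSE (CCAAT, any 9 bases, then CCACG), to an ERSE-II (ATTGG, any base, then CCACG), to a UPRE, the XBP1 element, searched as TGACGTGG, and to the core of the amino acid response element (AARE, bound by ATF4), searched as TTGCATCA. Each was searched on both strands, with exact letters outside the open positions, and only the fixed letters of an element are in capitals. The windows are chr10:75893148-75893447 on the plus strand for Derl3, chr19:6046326-6046625 on the plus strand for Syvn1, chr8:94386179-94386478 on the plus strand for Herpud1 and chr12:91849108-91849407 on the minus strand for Sel1l.
Derl3: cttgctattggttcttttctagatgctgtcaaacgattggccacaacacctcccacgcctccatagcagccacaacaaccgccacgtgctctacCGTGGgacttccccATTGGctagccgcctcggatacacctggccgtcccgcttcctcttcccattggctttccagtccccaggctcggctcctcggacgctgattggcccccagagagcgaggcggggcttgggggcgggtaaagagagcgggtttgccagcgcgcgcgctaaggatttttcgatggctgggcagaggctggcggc
Syvn1: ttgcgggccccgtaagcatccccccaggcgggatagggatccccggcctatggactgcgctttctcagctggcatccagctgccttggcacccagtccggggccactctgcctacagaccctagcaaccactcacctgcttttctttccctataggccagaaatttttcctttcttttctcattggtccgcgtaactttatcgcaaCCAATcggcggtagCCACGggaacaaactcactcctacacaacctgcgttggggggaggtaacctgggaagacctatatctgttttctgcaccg
Herpud1: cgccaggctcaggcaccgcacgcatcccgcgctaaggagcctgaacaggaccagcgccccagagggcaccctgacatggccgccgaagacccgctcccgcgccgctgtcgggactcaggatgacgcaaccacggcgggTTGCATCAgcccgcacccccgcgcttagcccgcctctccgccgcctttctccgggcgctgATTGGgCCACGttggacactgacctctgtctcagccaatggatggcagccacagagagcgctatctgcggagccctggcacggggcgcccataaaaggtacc
Sel1l: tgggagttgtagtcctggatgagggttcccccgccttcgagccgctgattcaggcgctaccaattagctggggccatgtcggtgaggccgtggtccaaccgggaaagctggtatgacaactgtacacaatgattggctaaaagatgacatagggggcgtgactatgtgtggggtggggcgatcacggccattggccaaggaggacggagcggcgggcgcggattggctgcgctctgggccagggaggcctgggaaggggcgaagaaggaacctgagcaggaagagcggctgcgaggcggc

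An ERSE stood in the windows of Derl3 and Syvn1 and in 0.119% of 32851 RefSeq windows. In Derl3 it lay on the opposite strand, from base -156 to -138 before the start, so that its parts read as CGTGG and ATTGG in the printed line. In Syvn1 it lay on the coding strand, from -44 to -26. Herpud1 had an ERSE-II from -52 to -42, an element found in 0.0365% of windows, and an AARE core from -112 to -105, found in 0.895%. The UPRE letters, in 0.676% of all windows, were in none of the members' windows. Sel1l had no match to these 4 elements in its 300 bases. Its window held the separate parts of the ERSE, CCACG 1 time and CCAAT 4 times (the ERSE contains both). At least 1 match on either strand occurs in 32.8% of all windows for CCACG and in 37.4% for CCAAT. The share of windows with 4 matches to CCAAT was not counted. The remaining members with a window, Derl2, Os9 and Fam8a1, had no match to the 4 elements either. A match is a string of letters, and no binding was measured.

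**Figure D1:**
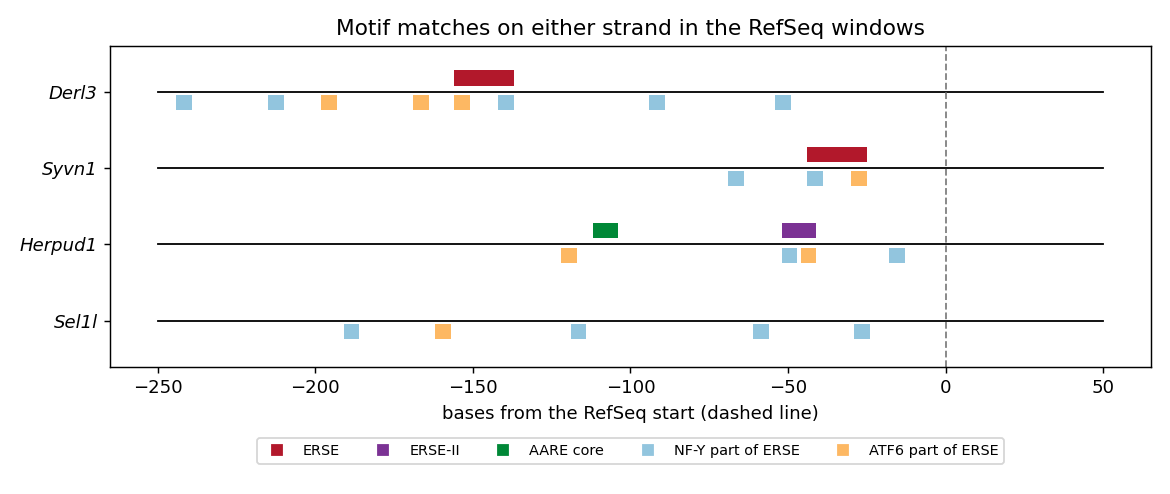
Positions of motif matches in the RefSeq windows of 4 genes, in bases from the annotated start on the x axis, with full elements above each line and the separate parts of the ERSE below it. Full ERSE matches stand in Derl3 and Syvn1, an ERSE-II and an AARE core in Herpud1, and only separate parts in Sel1l.

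Syvn1 encodes HRD1, the ubiquitin ligase at the centre of the complex. It stood at 11.46, 11.31 and 11.63 in Atf6a-/- TM livers and at 13.02, 12.89 and 12.90 in wild-type TM livers. With vehicle it stood at 9.19, 9.22 and 9.29 in Atf6a-/- livers and at 8.76, 9.47 and 8.84 in wild-type livers. Every TM array was above every vehicle array, the genotypes did not overlap under TM, and they overlapped with vehicle. TM raised Syvn1 4.69-fold in Atf6a-/- livers (log2 2.23, standard error 0.16, adjusted p = 1.33e-06) and 15.04-fold in wild-type livers (log2 3.91, standard error 0.16, adjusted p = 1.95e-08). Under TM it was 2.78-fold lower in Atf6a-/- than in wild-type livers (log2 -1.47, adjusted p = 0.00024). The response itself was smaller in Atf6a-/- livers by 1.68 on the log2 scale (95% confidence interval of the difference -2.17 to -1.19, adjusted p = 0.00335). A second probeset of Syvn1 gave -1.73 under TM and -1.97 for the interaction and was called in both.

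Sel1l encodes the adaptor that stabilises HRD1 and receives substrates from the lectins. Its values were 11.64, 11.77 and 11.81 in Atf6a-/- TM livers and 13.40, 13.53 and 13.33 in wild-type TM livers. Vehicle values were 10.25, 10.31 and 10.40 in Atf6a-/- livers and 10.23, 10.53 and 10.19 in wild-type livers. The lowest wild-type TM array lay 1.51 above the highest Atf6a-/- TM array on the log2 scale, whereas the vehicle groups lay on top of each other. The increase with TM was 2.68-fold in Atf6a-/- livers (log2 1.42, standard error 0.11, adjusted p = 2.03e-06) and 8.61-fold in wild-type livers (log2 3.11, standard error 0.11, adjusted p = 6.06e-09). Its log2 response in Atf6a-/- livers was 45.7% of the wild-type response, and the difference of 1.69 passed (interaction -1.69, 95% confidence interval -2.01 to -1.36, adjusted p = 1.93e-04). All 5 probesets of Sel1l were called lower in Atf6a-/- livers under TM, at log2 -2.24 to -1.68. The interaction was called for 4 of them, and the fifth, at -1.84, had an adjusted p of 0.113.

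Fam8a1 encodes a membrane cofactor that binds HRD1. It ranged from 10.88 to 11.17 in Atf6a-/- TM livers and from 11.004 to 11.15 in wild-type TM livers, and from 11.14 to 11.33 in Atf6a-/- vehicle and from 10.93 to 11.27 in wild-type vehicle livers. TM and vehicle overlapped in each genotype, as did the genotypes, and neither of its 2 probesets was called in any contrast. TM minus vehicle was -0.23 in Atf6a-/- livers (95% confidence interval -0.48 to 0.01) and 0.00 in wild-type livers (-0.24 to 0.24), intervals that hold no change as large as those of Syvn1 or Sel1l.

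Herpud1 encodes a short-lived ER membrane protein with a ubiquitin-like domain that joins HRD1 to the derlins. It stood at 13.60, 13.93 and 13.58 in Atf6a-/- TM livers and at 14.23, 14.20 and 14.24 in wild-type TM livers. With vehicle it stood at 12.28, 12.34 and 12.57 in Atf6a-/- livers and at 12.14, 12.85 and 12.47 in wild-type livers. TM separated the arrays in both genotypes, and the Atf6a-/- TM arrays were all below the wild-type TM arrays, by a gap of 0.27. Its rise was 2.48-fold in Atf6a-/- livers (log2 1.31, adjusted p = 6.68e-05) and 3.33-fold in wild-type livers (log2 1.74, adjusted p = 1.15e-05). The genotype difference under TM, -0.52 on the log2 scale, missed the threshold for this probeset (95% confidence interval -0.86 to -0.17, adjusted p = 0.107), while a second, dimmer probeset was called at -0.62 (adjusted p = 0.0172). Neither was called in the interaction (-0.43, adjusted p = 0.531, and -0.55, adjusted p = 0.236). The highest value on any array lay between 14.90 and 14.97, so the brightest Herpud1 probeset was near the top of the range in wild-type TM livers, and its part in the size of the difference was not tested. Without the 4 arrays with Y-linked signal, the brightest probeset was called under TM as well (-0.63, adjusted p = 0.0278).

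**Figure D2:**
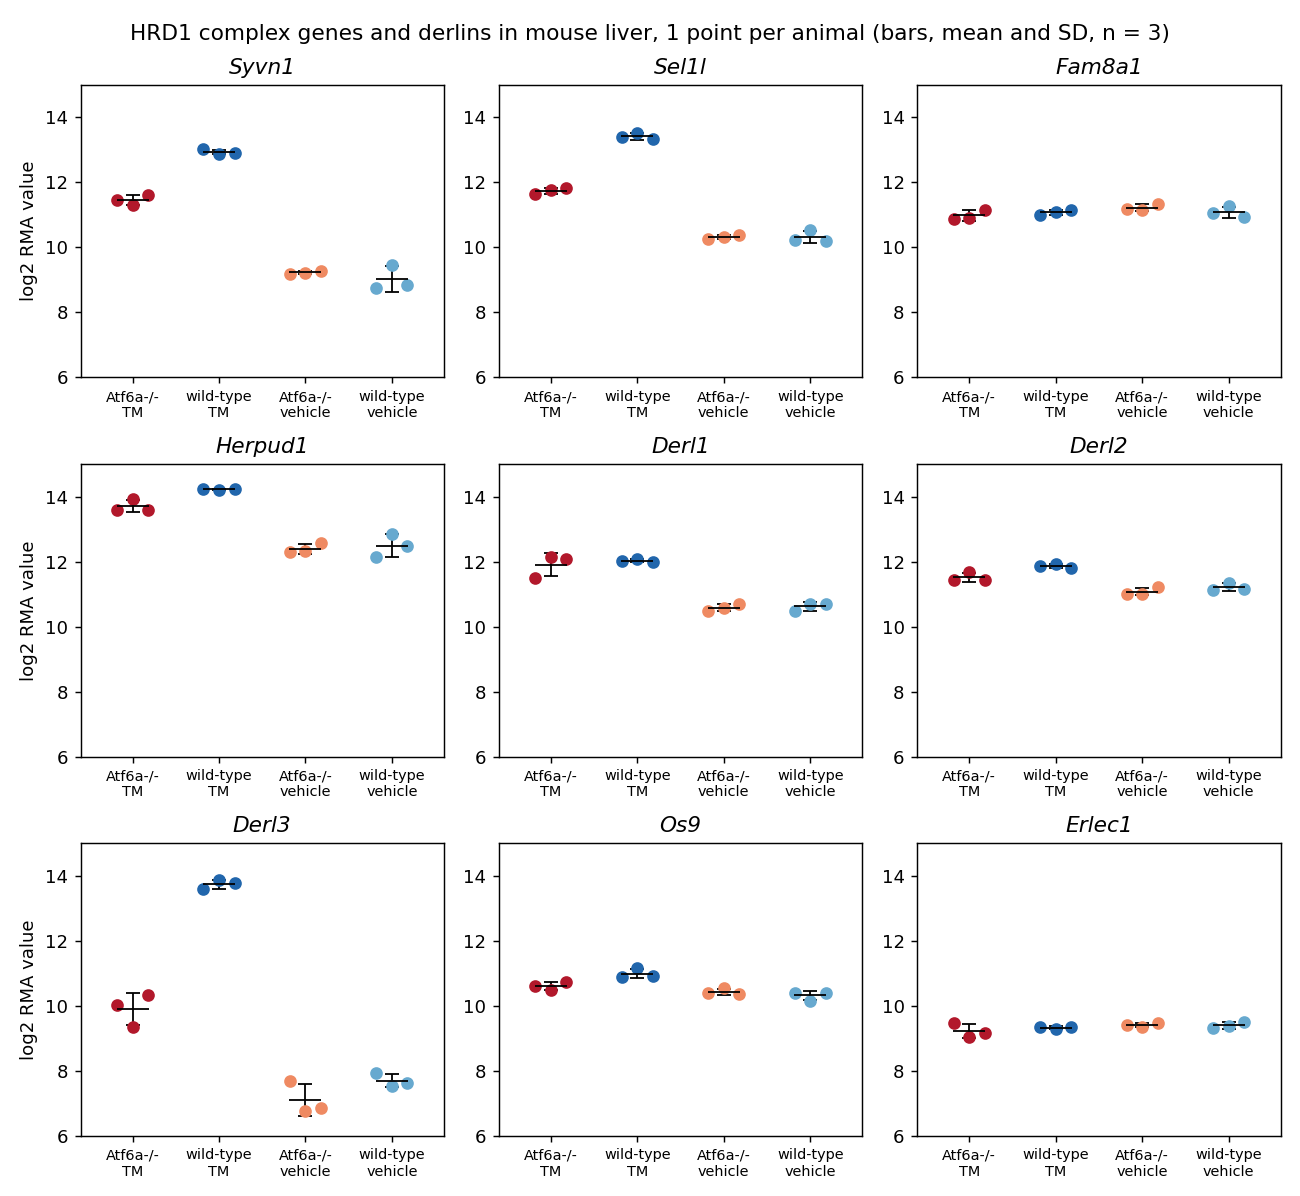
Log2 RMA value (y axis) of the brightest probeset of each gene in the 4 groups (x axis), with 1 point per animal and bars for the mean and SD of 3 animals. The Atf6a-/- TM animals lie between the vehicle animals and the wild-type TM animals for Derl3, Sel1l and Syvn1. They do so for Herpud1 and Derl2 as well, with smaller gaps to the wild-type TM animals. For Derl1 they lie level with wild-type TM apart from 1 animal below, at 11.50, and all groups are close for Erlec1 and Fam8a1.

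The derlins are a family of multispanning ER membrane proteins related to rhomboid proteases. Derl3 was read by a single probeset. It stood at 10.03, 9.35 and 10.32 in Atf6a-/- TM livers and at 13.58, 13.86 and 13.77 in wild-type TM livers. Vehicle values were 7.68, 6.77 and 6.85 in Atf6a-/- livers and 7.92, 7.54 and 7.62 in wild-type livers, all above the array medians of 4.98 to 5.11. The genotypes were 3.26 apart at their closest under TM, and overlapped with vehicle. TM raised Derl3 6.95-fold in Atf6a-/- livers (log2 2.80, standard error 0.26, adjusted p = 7.95e-06) and 66.1-fold in wild-type livers (log2 6.05, standard error 0.26, adjusted p = 2.79e-08). Among 18193 genes it ranked 65 by increase in Atf6a-/- livers and 4 in wild-type livers. Under TM it was 14.3-fold lower in Atf6a-/- than in wild-type livers (log2 -3.84, adjusted p = 5.01e-06), the rank 4 decrease of all genes, and the response differed by -3.25 (95% confidence interval -4.04 to -2.46, adjusted p = 0.00102). With vehicle the difference of -0.59 had an interval of -1.15 to -0.03 and did not pass after adjustment (adjusted p = 1).

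Derl1, the best studied derlin, gave 11.50, 12.14 and 12.09 in Atf6a-/- TM livers and 12.03, 12.08 and 11.99 in wild-type TM livers. With vehicle it gave 10.47, 10.58 and 10.68 in Atf6a-/- livers and 10.47, 10.69 and 10.71 in wild-type livers. TM parted the arrays in each genotype, and the genotypes overlapped with and without TM, with 1 Atf6a-/- TM animal below the rest. The increase was 2.51-fold in Atf6a-/- livers (log2 1.33, adjusted p = 3.55e-05) and 2.66-fold in wild-type livers (log2 1.41, adjusted p = 3.29e-05), so the Atf6a-/- response was 93.9% of the wild-type one on the log2 scale. The interaction was -0.09 with a 95% confidence interval of -0.55 to 0.37 (adjusted p = 0.935), which does not reach the values of Derl3, Sel1l or Syvn1. The other 3 probesets of Derl1 rose with TM by 1.504 to 2.31 in Atf6a-/- and by 1.67 to 2.28 in wild-type livers, and 0 of 4 probesets differed between the genotypes.

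Derl2, a close relative of Derl3, had the smallest response of the derlins by its brightest probeset. It ranged from 11.43 to 11.69 in Atf6a-/- TM livers and from 11.81 to 11.94 in wild-type TM livers, and from 11.01 to 11.21 in Atf6a-/- vehicle and from 11.12 to 11.36 in wild-type vehicle livers. The Atf6a-/- TM arrays lay below the wild-type TM arrays and above both vehicle groups. TM minus vehicle was 0.44 in Atf6a-/- livers, past the p but under 1.5-fold (adjusted p = 0.00722), and 0.66 in wild-type livers (adjusted p = 7.07e-04). Its dimmer probeset moved more, by 1.30 in Atf6a-/- livers and 1.503 in wild-type livers, and was called in both. Neither probeset passed between the genotypes under TM (-0.35, adjusted p = 0.0917, and -0.49, adjusted p = 0.07). The differences between derlins in their interaction were not tested.

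**Figure D3:**
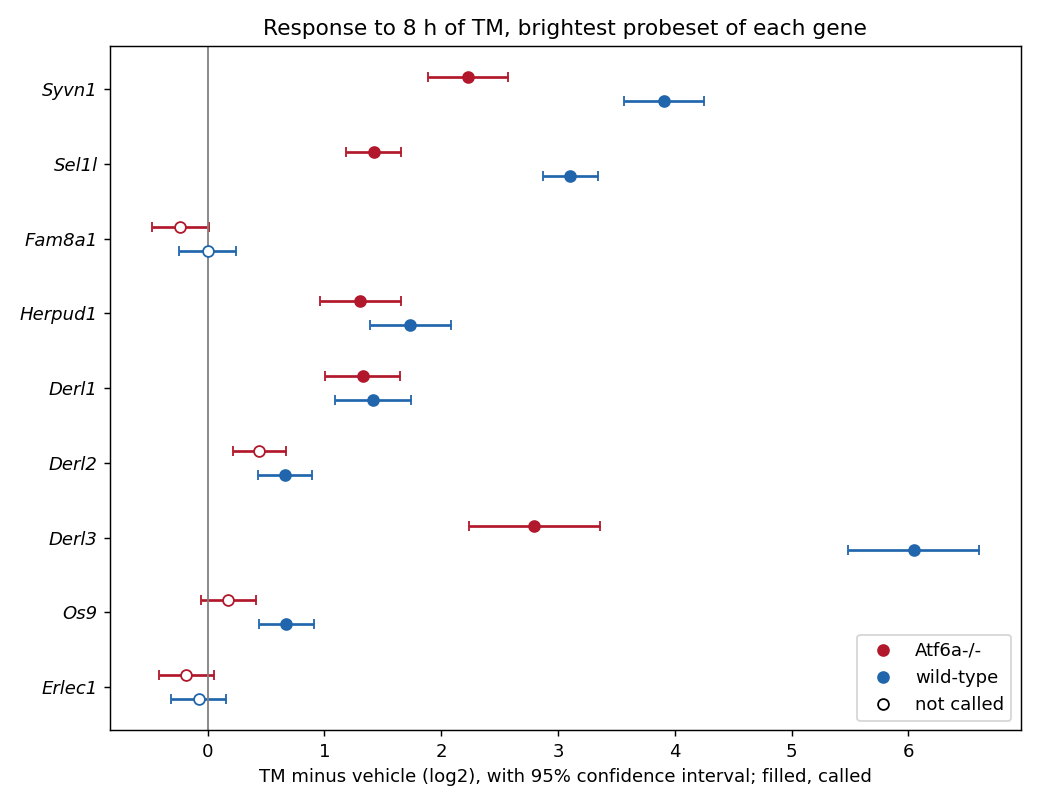
TM minus vehicle on the log2 scale (x axis) with 95% confidence intervals of limma for the brightest probeset of each gene (y axis), Atf6a-/- above wild-type, filled where called. The intervals of the genotypes are far apart for Syvn1, Sel1l and Derl3, nearly touch for Os9 (upper bound 0.41 in Atf6a-/-, lower bound 0.44 in wild-type) and overlap for the other genes, with Derl3 at 2.80 in Atf6a-/- and 6.05 in wild-type livers.

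Os9 and Erlec1 encode the lumenal lectins that read trimmed glycans and bind SEL1L. Os9 stood at 10.60, 10.50 and 10.72 in Atf6a-/- TM livers and at 10.89, 11.15 and 10.93 in wild-type TM livers, and its vehicle values ran from 10.36 to 10.54 in Atf6a-/- and from 10.16 to 10.40 in wild-type livers. It was the one member whose TM and vehicle arrays parted in wild-type livers and overlapped in Atf6a-/- livers. It was called higher with TM in wild-type livers at 1.59-fold (log2 0.67, adjusted p = 8.17e-04), and in Atf6a-/- livers TM minus vehicle was 0.18 (95% confidence interval -0.06 to 0.41, adjusted p = 0.246). The interaction of -0.49 did not pass (95% confidence interval -0.83 to -0.16, adjusted p = 0.187), so a difference in response was not shown. The second probeset of Os9 gave 0.51 in Atf6a-/- livers, under 1.5-fold with an adjusted p of 0.0267, and 0.86 in wild-type livers.

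Erlec1 was read by 3 probesets. The brightest ranged from 9.04 to 9.46 in Atf6a-/- TM, from 9.27 to 9.36 in wild-type TM, from 9.34 to 9.46 in Atf6a-/- vehicle and from 9.32 to 9.51 in wild-type vehicle livers. TM minus vehicle was -0.18 (95% confidence interval -0.42 to 0.06) in Atf6a-/- livers and -0.08 (-0.31 to 0.16) in wild-type livers. The groups of the brightest overlapped, and none of its probesets was called in any contrast.

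The 4 groups were ordered by mean for the 7 genes called higher with TM in wild-type livers, a choice that sets wild-type TM above wild-type vehicle beforehand. Their order was wild-type TM, Atf6a-/- TM and then the vehicle groups. The first step, wild-type TM over Atf6a-/- TM, was called for Derl3, Sel1l and Syvn1 alone. Going from Atf6a-/- TM to the higher of the vehicle groups, the adjusted p passed for 6 genes and not for Os9 (0.246), and the step of Derl2 was under 1.5-fold (0.31, adjusted p = 0.0456). The step between the vehicle groups passed for 0 genes. As a description of these 7 genes, whose choice by the wild-type call favours a smaller share, the log2 response in Atf6a-/- livers as a percent of the wild-type response was 40.2 to 48.6% over the probesets of Sel1l, 46.2% for Derl3, 52.7 to 57.1% for Syvn1, 69.5 to 75.3% for Herpud1 and at least 90.2% for Derl1. The probesets of Os9 (26.6% and 59.3%) and of Derl2 (66.7% and 86.2%) lay further apart, and their brightest were called in wild-type livers at 1.59-fold and 1.58-fold. Over all 23 probesets, 22 were below 0 in Atf6a-/- minus wild-type under TM, as were 54.7% of all 45037, 9 were called lower, as were 1.19% of all, and 0 were called higher, as were 1.92% of all. Of those 9, 5 belong to Sel1l, and probesets of 1 gene are not independent.

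**Figure D4:**
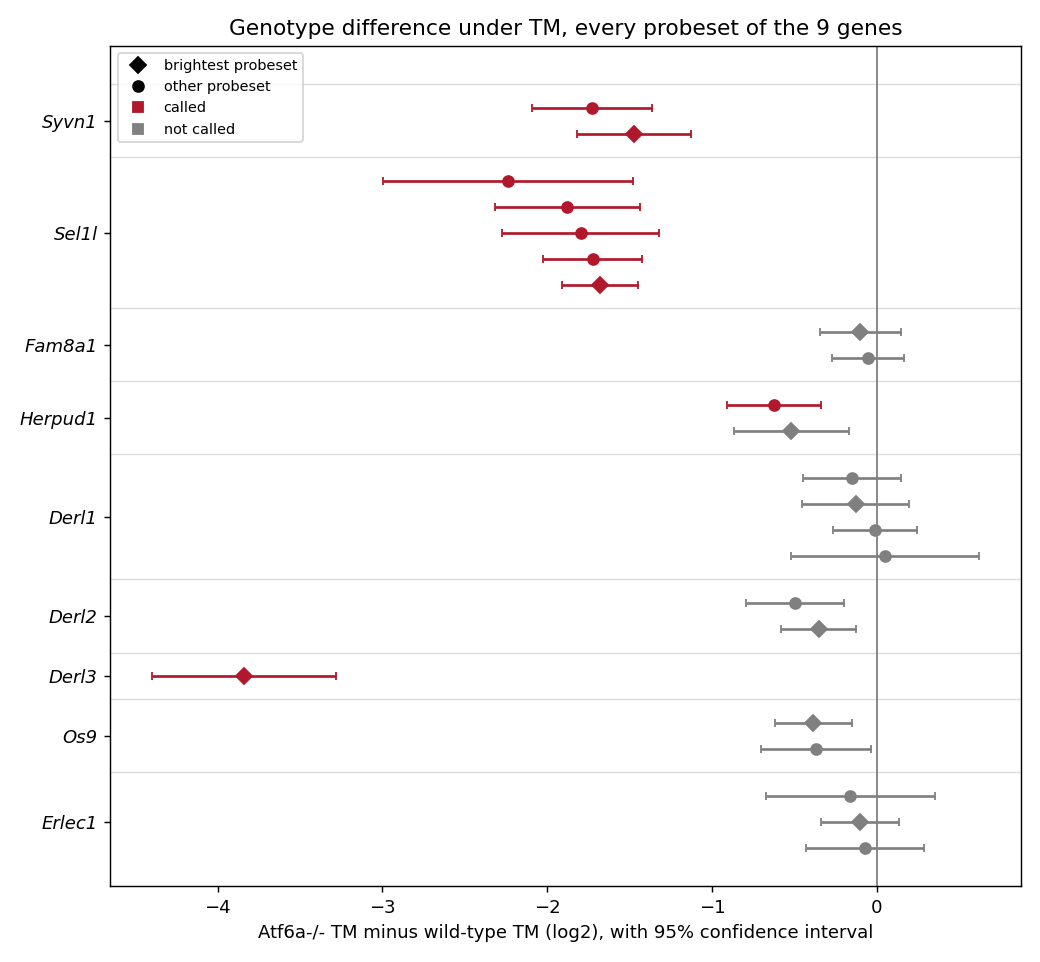
Atf6a-/- TM minus wild-type TM on the log2 scale (x axis) with 95% confidence intervals for each of the 23 probesets, grouped by gene (y axis), in red where called. All 5 probesets of Sel1l, both of Syvn1, the 1 of Derl3 and 1 of 2 of Herpud1 were called lower, and 1 probeset of Derl1 lay above 0.

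Which animal of a group was the highest or lowest was counted over the 9 genes. Of the animals with Y-linked signal, Atf6a-/- TM animal 2 was the highest of its group in 3 of the 9 genes and the lowest in 4, and wild-type TM animal 1 was the highest in 1 and the lowest in 3. Atf6a-/- vehicle animal 3 was the highest in 7 and wild-type vehicle animal 2 in 5. Over all genes these animals were the highest of their group in 37.6%, 35.5%, 36.2% and 34% of cases in the same order. Of the animals without this signal, Atf6a-/- TM animal 3 and wild-type TM animal 2 were each the highest in 5 (29.5% and 37.9% over all genes). The others without it were the highest in 1 to 3. Whether the counts depart from the shares over all genes was not tested. Leaving out all 4 arrays with Y-linked signal, the interaction was -3.10 for Derl3 (adjusted p = 0.00449), -1.78 for Sel1l (adjusted p = 0.00239) and -1.76 for Syvn1 (adjusted p = 0.00188).

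Other ERAD genes were taken by function. Of 13 lumenal mannosidases and chaperones, which trim and hold substrates before they reach HRD1, 11 were higher with TM in Atf6a-/- livers and 13 in wild-type livers. The shares over all genes were 13.1% and 8.92%. Under TM, 6 of the 13 were lower in Atf6a-/- than in wild-type livers, as were 1.53% of all genes, with a median of -0.65 over the list and -0.02 over all genes. The 4 with the largest limma statistic were Dnajb11 (ERdj3, a cochaperone of BiP) at 11.37 ± 0.16 in Atf6a-/- TM and 12.79 ± 0.17 in wild-type TM livers (log2 -1.42, adjusted p = 1.03e-04), Sdf2l1 (a partner of ERdj3) at 10.05 ± 0.54 in Atf6a-/- TM and 12.39 ± 0.26 in wild-type TM livers (-2.34, adjusted p = 1.65e-04), Edem1 (a mannosidase-like protein) at -1.06 (adjusted p = 3.81e-04) and Dnajc3 (p58IPK) at -1.02 (adjusted p = 0.0112). Dnajc10 and Hsp90b1 were the other 2, named after their values were seen. The interaction was called for 3 of the 13, Dnajb11, Sdf2l1 and Edem1, each with a smaller response in Atf6a-/- livers, as for 0.748% of all genes.

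Of 17 further ubiquitin ligases and conjugating enzymes, 5 were higher and 1 lower (Rnf5) with TM in Atf6a-/- livers, and 4 were higher and 0 lower in wild-type livers. Under TM the ligase Rnf185 was higher in Atf6a-/- (11.36 ± 0.05) than in wild-type livers (10.63 ± 0.06; log2 0.72, adjusted p = 0.00104), and the ligase Rnf5 was lower, at 10.12 ± 0.21 in Atf6a-/- and 10.74 ± 0.16 in wild-type livers (log2 -0.61, adjusted p = 0.0172). Rnf185 was the one gene of this list called in the interaction (0.65, adjusted p = 0.0411). Its brightest probeset ends in _x_at and so may read related transcripts. Over all genes, 13.1% were higher and 8.21% lower with TM in Atf6a-/- livers, and 8.92% higher and 6.90% lower in wild-type livers. Between the genotypes under TM 2.89% were higher and 1.53% lower, and 1.06% were higher in the interaction. A single gene of 17 in a direction is near this background. Ube2j1 and Ube2g2, conjugating enzymes that work with HRD1 and were named after their values were seen, rose with TM by 1.20 and 2.45 in Atf6a-/- and by 1.25 and 1.91 in wild-type livers, and neither was called between the genotypes.

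Of 24 genes of p97 and retrotranslocation, 11 were higher with TM in each genotype, Svip, an inhibitor of ERAD, was lower in both (-1.52 in Atf6a-/- and -0.89 in wild-type livers), and 0 were called between the genotypes under TM or in the interaction. Over all genes 13.1% were higher and 8.21% lower with TM in Atf6a-/- livers, and 8.92% higher and 6.90% lower in wild-type livers. Between the genotypes under TM 2.89% were higher and 1.53% lower, and in the interaction 1.06% were higher and 0.748% lower. Both 1 of 24 lower with TM and 0 of 24 between the genotypes are near this background. Vcp, the gene of p97, stood at 12.24 ± 0.12 in Atf6a-/- TM and 12.66 ± 0.12 in wild-type TM livers, a difference of -0.42 that did not pass (adjusted p = 0.0692). With TM it rose by 0.34 in Atf6a-/- livers, under 1.5-fold, and by 0.94 in wild-type livers, where limma called it (adjusted p = 0.000112). Its interaction of -0.61 did not pass (adjusted p = 0.12). The 11 genes called higher were thus not all the same in both genotypes. Svip was named after its values were seen and Vcp for its role. Median differences under TM were 0.09 over the p97 list and 0.13 over the ligase list, against -0.02 over all genes.

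**Figure D5:**
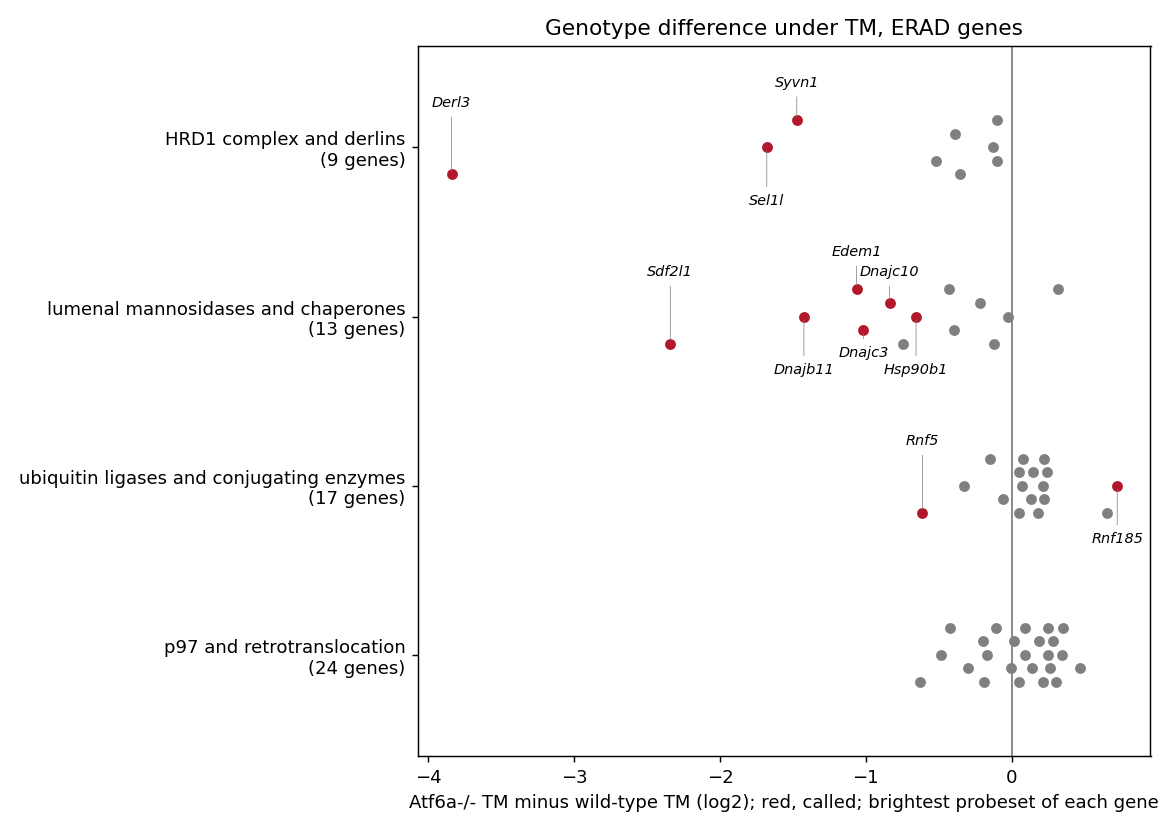
Atf6a-/- TM minus wild-type TM on the log2 scale (x axis) for each gene of the HRD1 complex and of 3 further groups of ERAD genes (y axis), 1 point per gene, red where called. Called genes lie below 0 in the HRD1 complex (3 of 9) and among lumenal mannosidases and chaperones (6 of 13), 1 on each side among ligases and conjugating enzymes, and none in the p97 group.

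Genes whose group means ran most like those of a member were found by the root mean square difference of 3 group means, each relative to the gene's own wild-type vehicle mean on the log2 scale, over the 4 groups. Nearest to Derl3 were Creld2 (0.76), Tes (0.894) and Slc20a1 (0.959), none of which was as high as Derl3 in wild-type TM livers (4.87, 4.90 and 4.39, with 6.05 for Derl3). Nearest to Sel1l were Ung (0.0855), Cgref1 (0.217) and Fancb (0.219). Herpud1 was closest to Pja2 (0.0664), Kcnq1ot1 (0.0718) and Creb3l2 (0.0753), and Derl1 to Psme3ip1 (0.0256), Fkbp14 (0.0279) and Kat6b (0.0463).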

How the data were processed

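The data were 12 Affymetrix arrays (1 colour, 1 mouse liver each), and the labels gave each group, the dose and the time. The deposited log2 values were made by the authors with RMA, as the labels name affy, RMA and limma, and whether other arrays were normalized with these is not given in the sources used here. RMA quantile normalizes arrays, which removes differences in total signal. Of 45101 probesets, 64 controls were left out and 45037 tested. Symbols were updated through Entrez identifiers. The brightest probeset that names a gene alone stood for it, since 932 probesets name several genes and 9160 none. List genes without such a probeset are not reported here.

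All 12 arrays entered a linear model of the 4 group means in limma 3.58.1 (R 4.3.3) with eBayes (8 residual and 4.25 prior degrees of freedom). p-values were adjusted by Benjamini-Hochberg over all 45037 probesets of a contrast, and calls needed both an adjusted p below 0.05 and a change over 1.5-fold. The procedure was tested on simulated data. With 3 arrays against 3, exact permutation gives no p under 0.1, so it was not used. The number of arrays limits the precision.

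The rule for named genes took the 9 members, Atf6 and Smarcb1. It also took up to 4 called genes per ERAD list, those with the largest absolute statistic between the genotypes under TM. For Derl3, Sel1l, Herpud1 and Derl1 it took the 3 genes nearest in group means. Outside this rule, Dnajc10, Hsp90b1, Ube2j1, Ube2g2 and Svip were named after their values were seen, and Vcp for its role. Members and lists were chosen with earlier results of these data known. Alternatives were other normalizations and centring, other thresholds and tests, other probeset choices, a replicate block, a covariate of Y-linked signal and leaving out each array. The fit without the 4 arrays that carry Y-linked signal was chosen after seeing the data.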

Additional observations from a re-analysis of the deposited data

Results flagged for a closer look

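The response to TM differed between the genotypes by the test of the interaction for 3 genes. The response in Atf6a-/- minus that in wild-type livers was -3.25 on the log2 scale for Derl3, -1.69 for Sel1l and -1.68 for Syvn1 (limma, adjusted p = 0.00102, 1.93e-04 and 0.00335). In each of these genes all 3 Atf6a-/- TM animals were below all 3 wild-type TM animals, and the vehicle groups overlapped. The same held for the brightest probesets of Herpud1, Derl2 and Os9, which were not called, so it does not mark these genes. How many of all genes part in this way was not counted.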

How the results depend on the processing

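Over 29 alternative settings, 1263 of 1273 values of the 9 genes kept their call, and 0 called values reversed. The interactions of Derl3, Sel1l and Syvn1 were called in all 25, 26 and 26 alternatives that gave a value, at -3.46 to -2.96, -1.79 to -1.62 and -1.97 to -1.55. Derl3 had no value once probesets ending in _s_at, _x_at or _a_at, which may read related transcripts, were left out. When the methods' t-test was adjusted by Benjamini-Hochberg, 0 of the 9 genes, and 0 of all genes in either direction, were lower or higher in Atf6a-/- livers under TM, with adjusted p of 0.0917 for Derl3, 0.0582 for Sel1l and 0.0718 for Syvn1, and this test has no interaction. Unadjusted, it called 3 of the 9 genes, and 308 of all genes, lower and 644 of all genes higher. With limma's p left unadjusted, 1 gene, Derl3, was called between the genotypes with vehicle (-0.59). Of the smaller responses, Derl2 in Atf6a-/- livers was called with the mean of all its probesets (0.87) or with no fold threshold, Derl2 and Os9 in wild-type livers were not called at 2-fold, and Os9 in wild-type livers missed in the adjusted t-test (0.0602). The replicate block changed no call of the 9 genes (Derl3 under TM -3.84, adjusted p = 2.69e-05). Of same-numbered pairs of arrays, 6 of 18 correlated over 0.1 (r from -0.48 to 0.39), and 5 of 12 arrays correlated best with their own number. The arrays with Y-linked signal do not share 1 number, and the correlations were not corrected for this signal. The check therefore cannot tell whether animal numbers pair the arrays.

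Background counts moved more. Over all alternatives, genes with a higher response in Atf6a-/- livers by the interaction numbered 64 to 896 (193 as reported) and with a lower one 82 to 376 (136). Both lowest counts came without wild-type TM animal 2, the lower count was 85 and 86 without Atf6a-/- vehicle animals 1 and 2, and the higher count was also 90 without Atf6a-/- TM animal 1, 82 without wild-type TM animal 3, 73 and 81 without Atf6a-/- vehicle animals 1 and 2 and 68 without wild-type vehicle animal 3. Under TM, 0 to 780 genes were higher in Atf6a-/- livers (526) and 0 to 377 lower (279). The higher count was 267 and 343 without wild-type TM animals 2 and 3 and 329 without Atf6a-/- TM animal 1. TM raised 1241 to 3202 genes in Atf6a-/- livers (2387) and 764 to 2197 in wild-type livers (1623), and lowered 564 to 3180 in Atf6a-/- (1493) and 481 to 2171 in wild-type livers (1255). Quantile normalization gave 2014 higher and 1924 lower with TM in Atf6a-/- livers. With vehicle 41 genes were called without wild-type vehicle animal 2. Centring on Btf3 and Ppia gave 107 higher and 130 lower in the interaction, and the calls of the 9 genes did not move.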

Other observations

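Smarcb1, which RefSeq places next to Derl3, was read by 3 probesets that disagreed. One stood at 5.49, 5.23 and 5.57 in Atf6a-/- TM livers and at 9.45, 9.77 and 9.95 in wild-type TM livers, and at 5.14 to 5.40 in all vehicle livers, so it was high in wild-type TM animals alone (Atf6a-/- minus wild-type under TM -4.30, limma, adjusted p = 1.06e-08). The brightest stood at 8.18 ± 0.12 in Atf6a-/- TM and 5.90 ± 0.33 in wild-type TM livers (SD, n = 3 each), with vehicle means of 7.90 in Atf6a-/- and 8.04 in wild-type livers, and so ran the other way. The third differed by 0.06 under TM (adjusted p = 0.856). Which transcript each of them reads was not analysed here.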
